A study of Mus musculus with 6 samples.

Results

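Myeloid cells can restrain T cells through a small set of effector genes, and 10 of these were followed here across splenic CD11b+Gr-1high cells of the mouse: Arg1, Arg2, Nos2, Cd274, Slc7a11, Slc7a2, Ptgs2, Ptges, Il10 and Tgfb1. They were chosen as named effectors, and every probe carrying one of these symbols in the platform annotation was taken, which gave 22 probes of the 45281 on the array and 10 of 19053 named genes. The 3 groups were tumor-free wild-type mice (wild type), IRF8 KO mice without a tumor, which lack the transcription factor IRF8 (KO), and wild-type mice bearing a tumor of the AT-3 cell line, a mouse mammary carcinoma line (AT-3). All groups were on the H-2b background, ages are not given in the sources used here, and each group had 2 Illumina bead arrays, 6 in all. Per the series' design text the cells were sorted to above 97% purity in 2 experiments, and the labels do not say which array belongs to which experiment or how many mice it stands for. The p-values therefore measure the spread between these samples, which may be partly technical.

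These genes act in a few connected ways. The arginases Arg1 and Arg2 and the inducible nitric oxide synthase Nos2 use up L-arginine, which T cells need, and the transporter Slc7a2 brings it into the cell. The cystine transporter Slc7a11 removes cystine from the surroundings, PD-L1 (Cd274) engages an inhibitory receptor on T cells, Ptgs2 and Ptges make prostaglandin E2, and Il10 and Tgfb1 are secreted cytokines that dampen immune responses. CD11b+Gr-1high cells of the spleen are largely neutrophils and their precursors, and IRF8 directs progenitors towards monocytes and dendritic cells and away from neutrophils.

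The members fell into a bright and a dim set. Each probe has a detection p-value that sets it against negative controls on the same array, and a probe counted as detected below 0.05. Arg2, Cd274, Tgfb1 and Slc7a11 were detected by at least 1 probe on all 6 arrays, 7 of the 22 probes were detected on none, and 14 passed the filter of detection on at least 2 arrays. Those 14 probes covered 9 of the 10 genes. Il10 did not pass. The number of members detected per array was 7 and 7 in wild type, 7 and 5 in KO, and 8 and 8 in AT-3. For a gene with several probes, the brightest one that passed the filter stood for it, and levels are compared only within a probe.

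**Figure D1:**
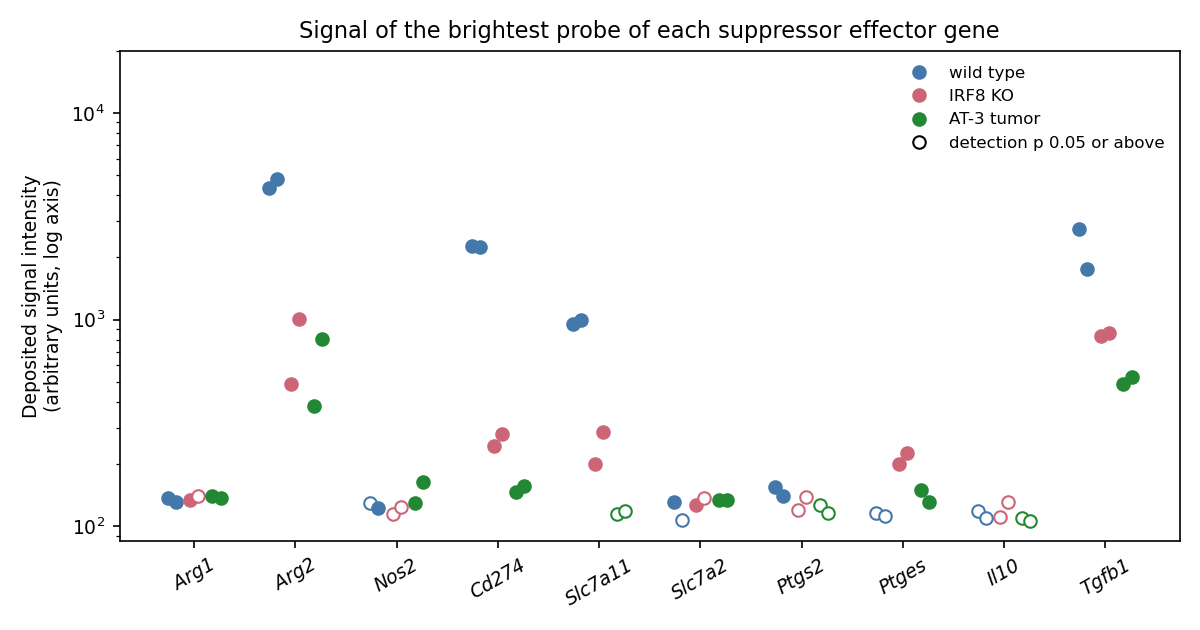
Deposited signal intensity (log axis, arbitrary units) of the brightest probe of each gene on each of the 6 arrays, coloured by group, with open points where the detection p was 0.05 or above. Cd274, Arg2, Slc7a11 and Tgfb1 are brighter on both wild-type arrays than on any other array, Ptges is brightest in KO, and Arg1, Nos2, Slc7a2 and Il10 lie near the dim end throughout.

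Deposited signals averaged 379.0 to 397.1 over all probes in wild type, 406.9 to 421.3 in KO and 264.7 to 283.7 in AT-3, so the AT-3 arrays were dimmer before normalization. Differences below are on normalized log2 values unless called signals. The targeted gene was lower in KO: Irf8 signals were 221.6 and 192.3 in wild type, 127.1 and 156.7 in KO and 367.9 and 253 in AT-3, a log2 difference of -1.69 (SE 0.31, limma adjusted p = 0.0063) for KO against wild type. Whether the Irf8 probe lies in the deleted part is not given in the sources used here. All 13 neutrophil markers with a probe were detected in each group, with summed levels (linear sums of normalized values) of 185000 and 192000 in wild type, 219000 and 244000 in KO and 240000 and 249000 in AT-3. A sum is carried by its brightest genes, and single markers moved both ways: 4 were higher and 2 lower in KO, and 5 were higher and 2 lower in AT-3 against wild type. Cd177 was 2.65 and Itgam, which encodes CD11b, 2.06 higher in KO, while the receptors Csf3r and Cxcr2 were -2.25 and -2.06. For monocyte and macrophage markers the summed level was 14300 and 12300 in wild type, 720 and 614 in KO and 1760 and 2550 in AT-3, and 15 of 15 were detected in wild type, 9 in KO and 10 in AT-3. C1qa, Cd163 and Timd4 were detected in neither KO nor AT-3, Ccr2, Fcgr1 and Ms4a7 not in KO, and Mrc1 and Spic not in AT-3. The part of these markers in the differences of the effector genes was not tested, and in sorted bulk cells fewer cells of a type and less RNA per cell cannot be told apart. B-cell markers summed to 194 and 331 in wild type, 692 and 1050 in KO and 222 and 133 in AT-3. T and NK cell markers summed to 251 and 310, 262 and 748, and 198 and 136 in the same order, dendritic cell markers to 237 and 281, 100 and 137, and 104 and 121, and eosinophil markers to 97.5 and 105, 31.7 and 34.4, and 43.5 and 26.1.

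Among the members with a promoter in the RefSeq table, Cd274 and Slc7a11 had the largest differences from wild type, and their promoters are shown here. Each is given as the 250 bases before the RefSeq start (GRCm38.p6), on the strand of the gene. Both are shown in lower case, with matches to searched motifs in capitals.
Cd274, chr19:29367188-29367437, + strand: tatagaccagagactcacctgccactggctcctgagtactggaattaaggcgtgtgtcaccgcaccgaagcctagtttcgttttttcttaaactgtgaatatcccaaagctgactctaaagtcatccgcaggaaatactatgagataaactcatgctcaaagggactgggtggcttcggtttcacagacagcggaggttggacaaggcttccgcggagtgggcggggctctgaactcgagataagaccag
Slc7a11, chr3:50443614-50443863, - strand: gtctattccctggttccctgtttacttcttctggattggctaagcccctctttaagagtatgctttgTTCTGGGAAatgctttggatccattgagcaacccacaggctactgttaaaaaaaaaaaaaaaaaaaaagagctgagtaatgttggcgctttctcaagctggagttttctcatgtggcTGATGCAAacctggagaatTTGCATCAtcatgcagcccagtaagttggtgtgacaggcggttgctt
Of the 10 genes, 5 had a promoter in the RefSeq table (Cd274, Ptges, Ptgs2, Slc7a11 and Tgfb1), and 6 motifs were searched on both strands. In Slc7a11 the capitals mark a STAT site (TTCNNNGAA, in 7.18% of 27025 promoters) 183 to 175 bases before the start. They also mark a pair of inverted amino acid response elements (TGATGNAA, in 3.53% of promoters), the kind of sequence bound by ATF4, at 66 to 59 and 47 to 40 bases before the start. These matches do not overlap one another. The other 4 promoters held no match to these motifs, nor to the IRF and ETS composite motif (in 2.38% of promoters), the interferon response motif (3.04%), the antioxidant response (TGACNNNGC, 10.1%) or the AP-1 motif (TGANTCA, 6.87%). A match describes the letters only, and its absence says only that these letters are not in this window.

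Cd274, which encodes PD-L1, differed most from wild type among the bright genes in KO, while Slc7a11 did so in AT-3. Its signals (ILMN_1226800) were 2271.1 and 2257 in wild type, 245.6 and 278.2 in KO and 147.3 and 156.8 in AT-3. The wild-type arrays stood far above the other 4, and no groups overlapped. On the normalized scale the means were 10.82 ± 0.05 (SD, n = 2) in wild type, 6.86 ± 0.26 in KO and 6.23 ± 0.34 in AT-3. Cd274 was 15.5-fold lower in KO than in wild type (log2 difference -3.96, SE 0.25, limma adjusted p = 0.000303). It was 24-fold lower in AT-3 (log2 difference -4.59, SE 0.25, limma adjusted p = 0.000259). KO and AT-3, the neighbours at the low end, differed by -0.63 (95% interval -1.23 to -0.04, limma adjusted p = 0.157), which did not pass the threshold. It passed after scaling to the all-probe median (-1.53, limma adjusted p = 0.00191) and with no scaling (-1.63, limma adjusted p = 0.00113).

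Slc7a11 encodes xCT, the cystine transporter, and its brightest probe (ILMN_2948143) gave 3 levels. Signals were 951.7 and 992.4 in wild type, 199.3 and 286.2 in KO and 114.5 and 119.2 in AT-3, where it was detected on neither array. Slc7a11 was 7.54-fold lower in KO than in wild type (log2 difference -2.91, SE 0.32, limma adjusted p = 0.00106). In AT-3 it was at least 22.8-fold lower (-5.04, SE 0.32, limma adjusted p = 0.000415). A bound of this kind sets the brighter group against the lowest signal that counts as detected. Slc7a11 was also the 1 member called between AT-3 and KO, at least 3.02-fold lower in AT-3 (log2 difference -2.12, SE 0.32, limma adjusted p = 0.00876). This probe passed the filter only through wild type and KO, where it is high. The direction of its AT-3 differences therefore follows from the filter and supports nothing. The call against KO was lost without AT-3 replicate 2 (-2.3). It was also lost with the probes of a gene averaged and with detection under 0.01 required on every array.

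The other probes of Slc7a11 gave smaller differences. A second probe detected on all arrays (ILMN_2740738) had signals of 266.1 and 236.6 in wild type, 175.1 and 223.2 in KO and 137.2 and 139.5 in AT-3. With each probe as its own feature it was -1.10 in KO (SE 0.28, limma adjusted p = 0.0224) and -1.62 in AT-3 against wild type (SE 0.28, limma adjusted p = 0.00535). Between AT-3 and KO it was -0.51 (limma adjusted p = 0.28), so the step from KO to AT-3 passed the test on 1 probe only. A dim probe (ILMN_2463432) was detected in wild type alone, through which it passed the filter, so its lower values in KO and AT-3 follow from that selection and support nothing. A further probe (ILMN_2574165) split the KO arrays, with signals of 121.5 and 380.3, and passed no test. The last of the 5 (ILMN_2568074) stayed between 113.7 and 132.2 on all arrays and also passed none.

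**Figure D2:**
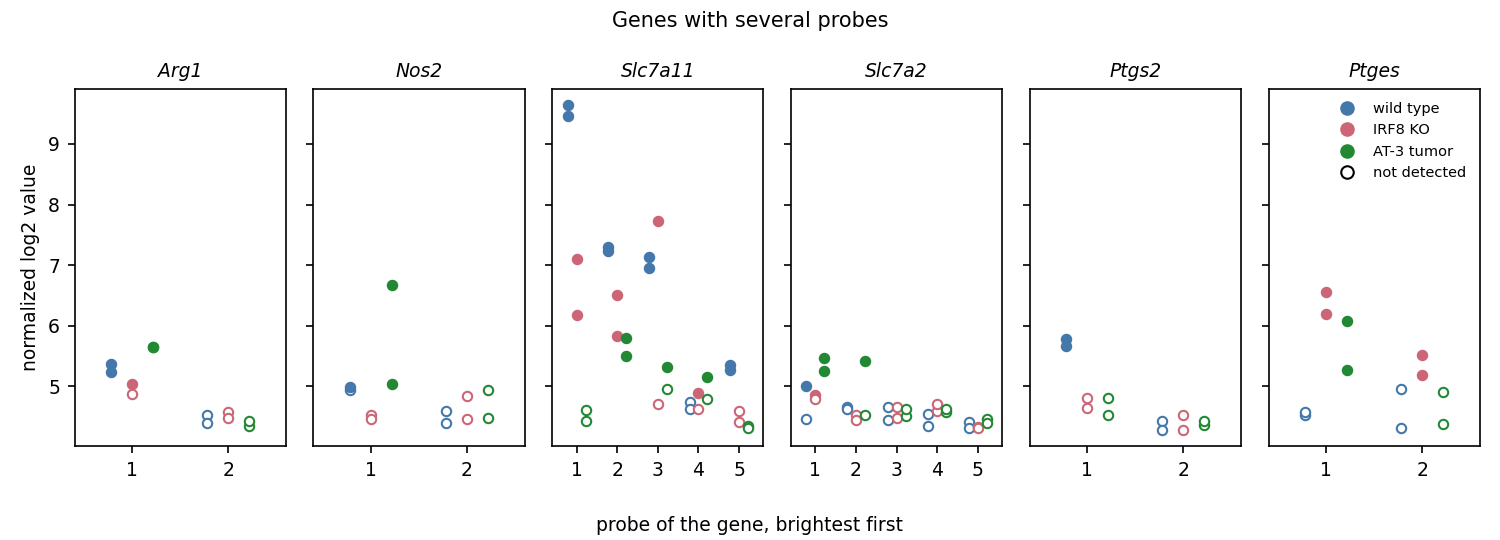
Normalized log2 value of every probe of the 6 genes with more than 1 probe, on each array, brightest probe first, open where not detected. The brightest Slc7a11 probe spans the widest range, while the other probes of Arg1, Nos2 and Ptgs2 and all but 2 probes of Slc7a2 were detected on no array.

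Arginine use showed different patterns for Arg2 and for the other genes. Arg2, the mitochondrial arginase, had signals (ILMN_2669164) of 4333.1 and 4791.4 in wild type, 486.4 and 1006.5 in KO and 380.5 and 802.7 in AT-3. Both wild-type arrays lay above the other 4, and KO and AT-3 overlapped, with normalized means of 11.85 ± 0.15 in wild type, 8.79 ± 0.98 in KO and 9.65 ± 1.08 in AT-3 (SD, n = 2). Arg2 was 8.33-fold lower in KO (log2 difference -3.06, SE 0.58, limma adjusted p = 0.00739) and 4.59-fold lower in AT-3 (-2.20, SE 0.58, limma adjusted p = 0.0236). The wide SE follows the spread of the KO and AT-3 arrays. Without wild-type replicate 2 the KO difference was -2.92 (limma adjusted p = 0.0526). In AT-3 the call did not survive leaving out wild-type replicate 1 (-2.29, limma adjusted p = 0.0886), wild-type replicate 2 (-2.07, limma adjusted p = 0.114) or AT-3 replicate 1 (-1.43, limma adjusted p = 0.123), nor a fit with no filter (-2.20, limma adjusted p = 0.0974).

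Arg1, the cytosolic arginase most often named for suppressive myeloid cells, was near background in every group. Its better probe (ILMN_2775157) gave signals of 137 and 131.4 in wild type, 134.2 and 140.3 in KO and 139.8 and 136.9 in AT-3, with detection p-values of 0.00214 to 0.0524. Its second probe was detected on no array. After normalization Arg1 was -0.35 in KO (95% interval -0.83 to 0.13, limma adjusted p = 0.236) and 0.34 in AT-3 against wild type (95% interval -0.14 to 0.82, limma adjusted p = 0.238). Between AT-3 and KO it was 0.69 (95% interval 0.21 to 1.18, limma adjusted p = 0.0724). None of these passed the threshold. Arg1 was called when arrays were scaled to the median of detected probes, both against wild type (0.82 in AT-3, limma adjusted p = 0.016) and in AT-3 against KO (1.36, limma adjusted p = 0.00463), and in AT-3 against KO also with no filter (0.69, limma adjusted p = 0.0463).

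Nos2, which turns arginine into nitric oxide and citrulline, was similarly dim. Its better probe (ILMN_1223499) had signals of 129.2 and 123 in wild type, 114.5 and 124.5 in KO and 130.2 and 164.3 in AT-3, and was detected on 1 wild-type array, no KO array and both AT-3 arrays. AT-3 replicate 2 stood above the rest. Against wild type Nos2 was -0.48 in KO (SE 0.47, limma adjusted p = 0.487) and 0.89 in AT-3 (95% interval -0.21 to 2.00, limma adjusted p = 0.184). Without AT-3 replicate 1 the AT-3 difference was 1.78 and was called (limma adjusted p = 0.0127). Between AT-3 and KO it was 1.37 (95% interval 0.27 to 2.48, limma adjusted p = 0.107), and was called without AT-3 replicate 1 (2.28, limma adjusted p = 0.00818) and under 3 other scalings (2.15 with the median of detected probes, 1.04 with the median of all probes and 0.94 with no scaling). Slc7a2, the cationic amino acid transporter that supplies arginine, had signals (ILMN_2642349) of 131 and 107.8 in wild type, 127.4 and 137.6 in KO and 133.4 and 134 in AT-3. It was 0.08 in KO (limma adjusted p = 0.833) and 0.62 in AT-3 against wild type (95% interval 0.03 to 1.21, limma adjusted p = 0.0958), a difference called after scaling to the detected-probe median (1.16, limma adjusted p = 0.00741), and its other 4 probes did not pass the filter.

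The prostaglandin E2 genes were called in opposite directions, but each passed the filter only through the groups where it is high. These directions therefore follow from the filter and support nothing. Ptgs2, or cyclooxygenase-2, had signals (ILMN_1231600) of 155 and 139.8 in wild type, 119.6 and 138.6 in KO and 126.1 and 116.5 in AT-3. It was detected on both wild-type arrays and on no other, so it passed the filter only through the group where it is high and had to differ. Ptgs2 was at least 1.84-fold lower in KO (log2 difference -0.99, SE 0.22, limma adjusted p = 0.0135) and at least 1.60-fold lower in AT-3 (-1.06, SE 0.22, limma adjusted p = 0.0101). Its second probe was detected nowhere. The raw signals of wild-type replicate 2 and KO replicate 2 lay close together. The KO call was lost with no background correction (-0.30, limma adjusted p = 0.0644) and without KO replicate 1 (-0.81, limma adjusted p = 0.0546), and the AT-3 call was lost when the median of the detected probes was set equal between arrays (-0.24, limma adjusted p = 0.38).

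Ptges encodes the inducible microsomal prostaglandin E synthase and was the 1 member called higher. Its better probe (ILMN_2786442) had signals of 116.4 and 112.4 in wild type, 200.9 and 227 in KO and 149.4 and 131.3 in AT-3. It was detected on all 4 KO and AT-3 arrays and on no wild-type array, and so passed the filter through the groups where it is high. Ptges was at least 2.65-fold higher in KO (log2 difference 1.81, SE 0.30, limma adjusted p = 0.0046) and at least 1.63-fold higher in AT-3 (1.11, SE 0.30, limma adjusted p = 0.0269). Its second probe (ILMN_2616028) was detected on the KO arrays only and was 0.71 in KO (limma adjusted p = 0.119) and 0.00 in AT-3 against wild type (limma adjusted p = 0.993). In AT-3 the call did not survive leaving out wild-type replicate 1 (1.09, limma adjusted p = 0.133), wild-type replicate 2 (1.15, limma adjusted p = 0.121) or AT-3 replicate 1 (0.75, limma adjusted p = 0.109), and was lost in 9 of 18 alternatives in all. AT-3 and KO differed by -0.70 (95% interval -1.41 to 0.01, limma adjusted p = 0.183), and were called apart after scaling to the all-probe median (-1.40) and with no scaling (-1.49).

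The cytokine genes differed in how well they could be measured. Tgfb1 had signals (ILMN_2711461) of 2735.7 and 1763.9 in wild type, 836.9 and 857.8 in KO and 488.1 and 530.1 in AT-3. Both wild-type arrays lay above the other 4, and they were also the most spread, with normalized means of 10.78 ± 0.38 in wild type, 9.15 ± 0.07 in KO and 9.56 ± 0.24 in AT-3 (SD, n = 2). Tgfb1 was 3.11-fold lower in KO (log2 difference -1.64, SE 0.26, limma adjusted p = 0.00384) and 2.34-fold lower in AT-3 (-1.23, SE 0.26, limma adjusted p = 0.0109). In AT-3 the call did not survive leaving out wild-type replicate 1 (-0.96, limma adjusted p = 0.0996) or AT-3 replicate 1 (-1.06, limma adjusted p = 0.0648). AT-3 against KO was 0.41 (limma adjusted p = 0.352). This sign turned to -0.77 (limma adjusted p = 0.037) when the median of all probes was set equal. Il10 had signals of 118.9 and 109.5 in wild type, 111.1 and 131.7 in KO and 109.5 and 105.6 in AT-3, with detection p-values of 0.219 to 0.923, so no level of Il10 could be told from background on any array.

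Counted together against wild type, 6 of the 9 measured members were called in KO, where 31.9% of all 12492 tested features were called. There were 1 higher (15.4% of all features) and 5 lower (16.5%), and Ptges and Ptgs2 among them had passed the filter only through the groups where they are high. The median over the members was -0.99, beside -0.01 over all features. This median is the value of Ptgs2, whose direction follows from the filter, so it supports nothing. In AT-3 against wild type, 6 of 9 were called, where 34.9% of all features were. Again 1 was higher (17.3% of all features) and 5 lower (17.6%), Ptges and Ptgs2 again among them. Slc7a11, also among the lower, had passed the filter only through wild type and KO, where it is high. The median was -1.06 beside -0.01, and it is again the value of Ptgs2. The AT-3 count fell when either wild-type array was left out. In those fits Ptgs2 no longer passed the filter and was not tested, so they covered fewer members. In AT-3 against KO, 1 of 9 was called, where 11.5% of all features were. That member, Slc7a11, was lower (5.34% of all features) and none was higher (6.16%), with a median of 0.41 beside -0.02. Its probe had passed the filter only through wild type and KO, so this call supports nothing. With each probe as its own feature, 8 of 14 were called in KO (31.3% of 17631 probes), 8 in AT-3 against wild type (32.6%) and 1 in AT-3 against KO (10.5%). Each 8 includes the called Ptges and Ptgs2 probes and the Slc7a11 probe detected in wild type alone. These passed the filter only through the groups where they are high. The same holds in AT-3 for the brightest Slc7a11 probe, which is also the 1 called against KO. Several of the 8 are probes of Slc7a11, so they are not separate genes. The first 2 comparisons share the wild-type arrays, so the likeness of their directions is not independent. Of all features, 11.2% were called lower in both KO and AT-3 than in wild type, and 0.4% were also called lower in AT-3 than in KO, as Slc7a11 was.

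**Figure D3:**
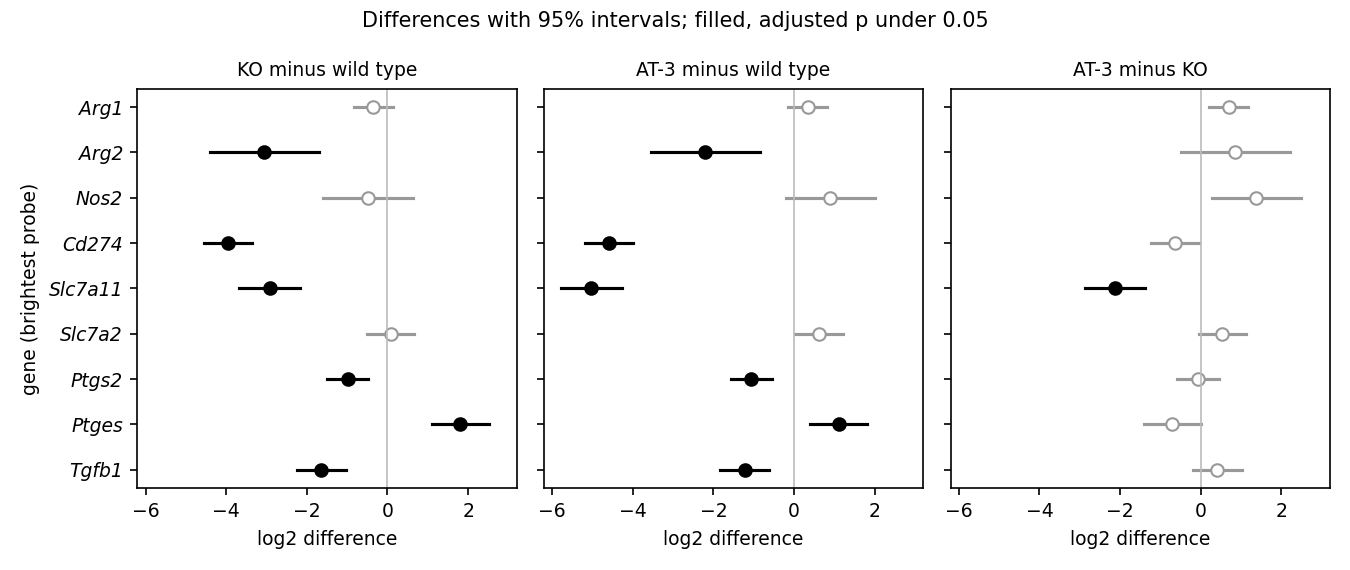
Log2 difference with its 95% interval for the 9 measured members in the 3 comparisons, filled where the limma adjusted p was under 0.05. Cd274, Slc7a11, Arg2, Tgfb1 and Ptgs2 lie below 0 and Ptges above 0 in both comparisons with wild type, and only Slc7a11 is filled in AT-3 against KO.

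The pathways around these genes were followed with 9 lists. Their counts stand beside shares over all features of 15.4% higher and 16.5% lower in KO, and 17.3% higher and 17.6% lower in AT-3 against wild type. These counts include genes detected in 1 group alone, and no count without them was made. Such genes passed the filter through the group where they are high, so their direction follows from the filter and supports nothing. Among arginine and polyamine genes, 3 of 10 measured genes were higher and 3 lower in KO. In AT-3 against wild type 4 were higher and 0 lower, beside 17.3% and 17.6% of all features. Over both directions 34.9% of all features were called. Ass1, argininosuccinate synthase, which with Asl remakes arginine from citrulline, had signals of 168.3 and 162.1 in wild type, 126.8 and 146.6 in KO and 302.2 and 433.4 in AT-3. Both AT-3 arrays stood above all others, and Ass1 was 6.54-fold higher in AT-3 (log2 difference 2.71, SE 0.32, limma adjusted p = 0.00161). It was -1.18 in KO (limma adjusted p = 0.0292), a call lost without any 1 of the wild-type or KO arrays and with no background correction (-0.38, limma adjusted p = 0.285). Asl, argininosuccinate lyase, rose by 1.43 in KO and 1.28 in AT-3, and both calls were lost without wild-type replicate 2 (0.93 and 0.78). The KO call was also lost without KO replicate 2 (1.21) and the AT-3 call without either AT-3 array (1.31 and 1.35), after scaling to the all-probe median (0.75) and with no scaling (0.70). In KO, Prodh, proline dehydrogenase, rose by 2.35 and Oat, ornithine aminotransferase, fell by 1.5, and both calls were lost without either wild-type array. The Prodh call was also lost without KO replicate 1 (1.75, limma adjusted p = 0.11) and the Oat call without either AT-3 array (limma adjusted p = 0.05 and 0.0503).

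The cofactor list held genes for the nitric oxide synthase cofactor, and also Nosip and Nostrin, which act on the synthase and do not make its cofactor. In this list 0 of 6 were higher and 1 lower in KO, and 1 (Nostrin) was higher and 0 lower in AT-3 against wild type. Gch1, the rate-limiting enzyme of tetrahydrobiopterin synthesis, had signals of 1355 and 1219.6 in wild type, 196.4 and 315.5 in KO and 1007.3 and 858.5 in AT-3. It was low in KO alone, 9.63-fold lower than in wild type (log2 difference -3.27, SE 0.37, limma adjusted p = 0.00114). Against wild type the AT-3 difference was 0.59 (limma adjusted p = 0.258), and AT-3 against KO it was 3.86 (SE 0.37, limma adjusted p = 0.00133). Ass1 likewise differed between AT-3 and KO, by 3.89 (SE 0.32, limma adjusted p = 0.000771). Nostrin, which traffics nitric oxide synthase in endothelial cells, rose by 1.5 in AT-3 (limma adjusted p = 0.00462), a call lost without wild-type replicate 1 (1.31, limma adjusted p = 0.0509).

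Around the cystine transporter, 1 of 13 cystine and glutathione genes was higher and 4 lower in each of KO and AT-3 against wild type, close to the 31.9% and 34.9% of all features called. Chac1, a glutathione-degrading enzyme, had signals of 3297.3 and 2825.6 in wild type, 830.4 and 631.9 in KO and 204.4 and 278.2 in AT-3. It was high in wild type, and AT-3 against KO was -1.04 (limma adjusted p = 0.102), which did not pass the threshold. Against wild type Chac1 was 5.24-fold lower in KO (limma adjusted p = 0.00289) and 10.8-fold lower in AT-3 (log2 difference -3.43, SE 0.35, limma adjusted p = 0.00107). Ddit3, the stress-induced factor CHOP, was 8.01-fold lower in KO and 5.34-fold lower in AT-3. Hmox1, heme oxygenase, was 8.74-fold lower in KO and 4.66-fold lower in AT-3. Atf4, a factor that binds elements of the kind matched by letters in the Slc7a11 promoter, rose by 0.80 in KO (limma adjusted p = 0.0401). Its binding there was not measured. The Atf4 call was lost without any 1 of the wild-type or KO arrays and after scaling to the detected-probe median (0.45, limma adjusted p = 0.203). Gclm, the modifier subunit of the enzyme that begins glutathione synthesis, had signals of 345.2 and 352.2 in wild type, 489 and 385.1 in KO and 629.5 and 654.3 in AT-3, and was 4.13-fold higher in AT-3 (limma adjusted p = 0.00142).

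Among 10 prostaglandin genes, 1 was higher and 5 lower in each of KO and AT-3, beside 31.9% and 34.9% of all features called. Hpgd, which inactivates prostaglandin E2, had signals of 462.8 and 367.1 in wild type, 118.2 and 133.5 in KO and 122.3 and 131.1 in AT-3. It was at least 10.4-fold lower in KO (limma adjusted p = 0.000364) and 9.64-fold lower in AT-3 (limma adjusted p = 0.000616), where it was detected on 1 of 2 arrays. Ptgis, prostacyclin synthase, was detected in wild type alone and was at least 4.76-fold lower in KO and at least 4.13-fold lower in AT-3. Abcc4, a transporter that exports prostaglandins, rose by 1.19 in KO, and Ptges2, another prostaglandin E synthase, rose by 0.94 in AT-3, and both calls were lost without wild-type replicate 2. The Abcc4 call was also lost without wild-type replicate 1 or KO replicate 1, and the Ptges2 call without either AT-3 array, after scaling to the all-probe median (0.39) and with no scaling (0.33). In the leukotriene list 1 of 7 was higher and 2 lower in KO, and 2 were higher and 1 lower in AT-3. Ltb4r1, the leukotriene B4 receptor, had signals of 3439.5 and 2874.5 in wild type, 13015.7 and 17165.7 in KO and 7593.3 and 4812.6 in AT-3, and was 5.21-fold and 3.43-fold higher in KO and AT-3. Cysltr1, a cysteinyl leukotriene receptor, fell by 1.26 in KO, a call lost without wild-type replicate 1 (-1.06, limma adjusted p = 0.0732), and rose by 1.54 in AT-3. Ltc4s, leukotriene C4 synthase, was detected in wild type alone. It was at least 2.27-fold lower in KO and at least 1.97-fold lower in AT-3, a call lost after scaling to the detected-probe median (-0.40, limma adjusted p = 0.182).

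Around Tgfb1, 1 of 15 TGF-beta genes was higher and 7 lower in KO, and 0 were higher and 8 lower in AT-3 against wild type, beside 16.5% and 17.6% of all features called lower. Thbs1, thrombospondin-1, an activator of latent TGF-beta, had signals of 110.1 and 98.8 in wild type, 421.1 and 721.2 in KO and 118.1 and 112.8 in AT-3. It was detected in KO only and was at least 10.5-fold higher there than in wild type (limma adjusted p = 0.000509). Tgfbr2, the receptor that binds the ligand, had signals of 5035.3 and 4693.2 in wild type, 818.2 and 1160 in KO and 525.8 and 630.6 in AT-3, and was 5.96-fold and 4.52-fold lower in KO and AT-3. Nrros, which holds latent TGF-beta on myeloid cells, was 3.45-fold lower in KO and 2.01-fold lower in AT-3 (limma adjusted p = 0.0418 in AT-3). The integrin subunit Itgav was 2.03-fold lower in KO and 3.06-fold lower in AT-3. Around Il10, 0 of 10 genes were higher and 6 lower in KO, and 1 was higher and 5 lower in AT-3. Socs3, a feedback inhibitor of STAT3 signalling, had signals of 12306.7 and 11562.6 in wild type, 1081.1 and 698.6 in KO and 727.2 and 2220.9 in AT-3, and was 18.2-fold lower in KO (limma adjusted p = 0.0018). Its 5.27-fold lower level in AT-3 (limma adjusted p = 0.0142) was not called without wild-type replicate 1 or 2 (limma adjusted p = 0.0719 and 0.0708). Bcl3, a nuclear IkB protein, was 12.1-fold lower in KO and -0.52 in AT-3 (limma adjusted p = 0.269). Il1rn, the interleukin-1 receptor antagonist, was 4.7-fold lower in KO and 12.7-fold lower in AT-3. Tyk2, a kinase of the receptor, rose by 1.33 in AT-3, a call lost without wild-type replicate 1, after scaling to the all-probe median (0.38) and with no scaling (0.33).

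Among checkpoint ligands and receptors, 0 of 12 were higher and 6 lower in KO, and 0 were higher and 3 lower in AT-3, beside 16.5% and 17.6% of all features called lower, so the AT-3 count lies near that share. Cd86, a costimulatory ligand, had signals of 1036.5 and 941.9 in wild type, 159.8 and 234.9 in KO and 352.5 and 404.5 in AT-3. It was 11.2-fold lower in KO (limma adjusted p = 0.000941) and -0.63 in AT-3 (limma adjusted p = 0.227), and AT-3 against KO was 2.86 (limma adjusted p = 0.00466). Havcr2, the receptor TIM-3, was detected in wild type alone and was at least 5.31-fold lower in KO and at least 4.61-fold lower in AT-3. Cd80, the other B7 ligand, was 3.95-fold lower in KO and 7.62-fold lower in AT-3, where it was detected on 1 of 2 arrays. Of 16 measured genes on a list of possible inducers of the effector genes, 0 were higher and 11 lower in KO. In AT-3 0 were higher and 9 lower. The list holds receptor and kinase genes beside transcription factors, and their action on the effector genes was not tested. Pparg was at least 7.03-fold lower in KO and 6.35-fold lower in AT-3, where it was detected on 1 of 2 arrays. Cebpb, a factor known for driving suppressive programmes in myeloid cells, was 3.79-fold lower in KO and 2.54-fold lower in AT-3. Jun, an AP-1 subunit, was 4.63-fold lower in AT-3, a call lost without either wild-type array and without AT-3 replicate 1.

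The list medians for KO against wild type were 0.00 for arginine and polyamine genes, -0.50 for the cofactor, -0.46 for cystine and glutathione, -0.55 for prostaglandin, -0.20 for leukotriene, -0.90 for TGF-beta, -1.29 for Il10, -0.54 for checkpoint and -1.06 for inducer genes, beside -0.01 over all features. For AT-3 they were 0.42, 0.49, -0.30, -0.71, 0.24, -1.10, -0.92, -0.36 and -0.76 in the same order, beside -0.01. In AT-3 against KO, 2 of 10 arginine and polyamine genes and 2 of 6 genes of the cofactor list (Gch1 and Nostrin) were called higher (6.16% of all features were called higher). With 1 wild-type array left out, calls fell across the whole array (to 1561 and 1402 from 3990 in KO, and to 1576 and 1377 from 4360 in AT-3), and the lists fell with them. Inducer genes called lower dropped to 5 and 4 in KO and to 3 and 3 in AT-3, TGF-beta genes to 3 and 4 and to 4 and 4, and Il10 genes to 3 and 3 and to 3 and 3. Prostaglandin genes called lower dropped to 1 and 1 in KO and 2 and 2 in AT-3, and checkpoint genes to 2 and 2 and to 1 and 1. Arginine and polyamine genes called in KO dropped from 6 to 1 and 0, and those called in AT-3 from 4 to 2 and 1. Without KO replicate 1, inducer genes called lower in KO numbered 7. Without AT-3 replicate 1, TGF-beta genes called lower in AT-3 numbered 5 and arginine and polyamine genes called higher 1. Without AT-3 replicate 2 the latter numbered 2, and without either AT-3 array 3 prostaglandin genes were called lower. Beside these lists, 0 of 14 monocyte and macrophage markers were higher and 14 lower in KO (median -3.69), and 2 were higher (Ccr2 and Fcgr1) and 12 lower in AT-3 (median -2.38), and their part in the list counts was not tested.

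**Figure D4:**
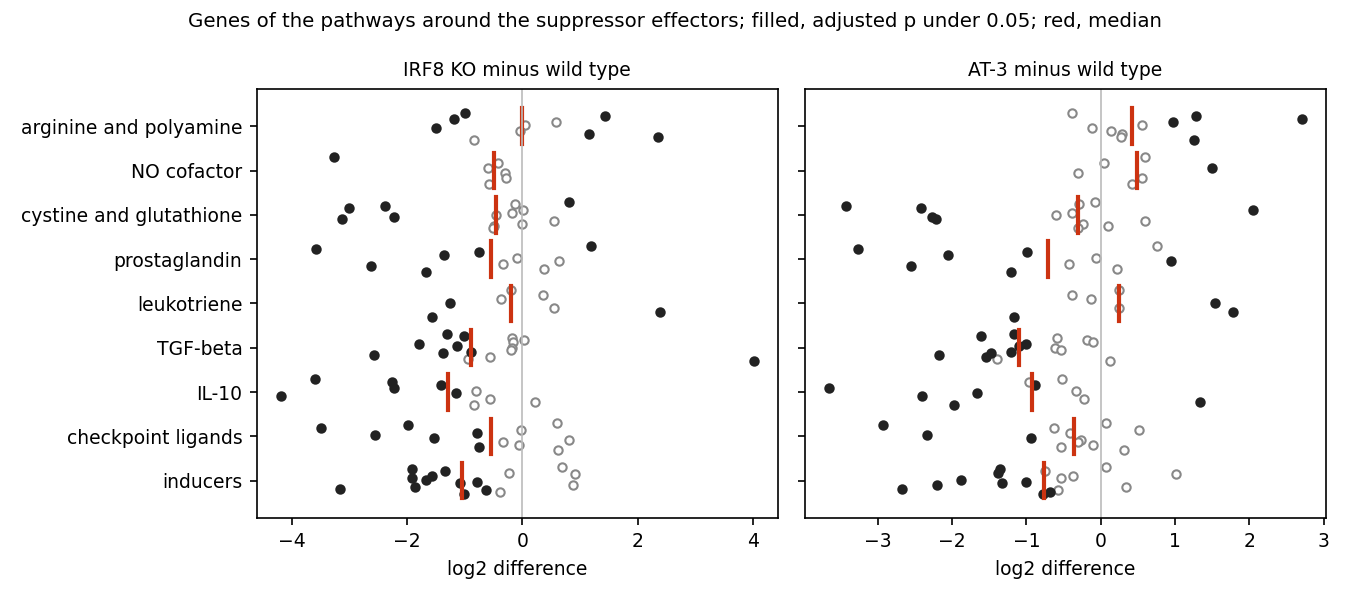
Log2 difference of every measured gene in the 9 pathway lists, for KO (left) and AT-3 (right) against wild type, filled where the limma adjusted p was under 0.05, with the list median in red. The inducer, Il10 and TGF-beta lists lie mostly below 0 in both, and arginine and polyamine genes lie to both sides in KO.

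For each called member, the named genes most like it were found by Pearson correlation of normalized values over the 6 arrays, which share 3 group means, among 9231 genes. They were picked for this likeness, so sharing the member's order of arrays or groups follows from the search. Cd274 was closest to Dnase1l3 (r = 0.9997), Midn (0.9974) and Jaml (0.9973), each highest in wild type. Slc7a11 was closest to Dtd1 (0.9984), Timm17b (0.9981) and Fam13b (0.9977), which step down through KO to AT-3. Arg2 was closest to B4galt3 (0.9987), Plekhm2 (0.9984) and Parp14 (0.9972), in which replicate 1 is again the lower array of KO and AT-3. Ptges was closest to Uap1l1 (0.9976), Fahd2a (0.9962) and Wipi1 (0.9955), all lowest in wild type. Ptgs2 was closest to Bmf (0.9984), Mocs3 (0.9959) and Git2 (0.9959), and Tgfb1 to Sdcbp (0.997), Nr2f6 (0.9949) and Pitpnm2 (0.9947).

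**Figure D5:**
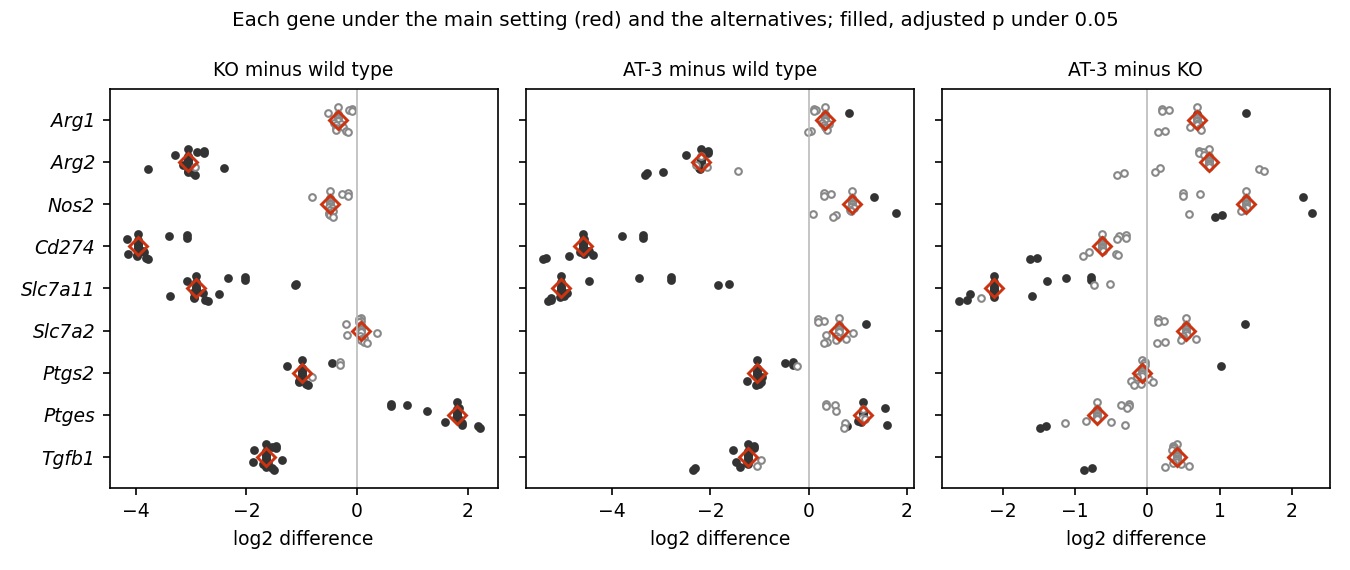
Log2 difference of each measured member as reported (red diamond) and under every alternative way of processing, filled where the limma adjusted p was under 0.05. Cd274 and Slc7a11 stay filled and below 0 against wild type throughout, while Arg2 and Tgfb1 reach both sides of 0 in AT-3 against KO.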

How the data were processed

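RNA of 6 samples was hybridized as biotin-labelled cRNA. The deposited table holds 1 linear signal intensity per probe and array, and, per the file headers, a deposited detection p-value for each. The authors' series matrix holds deposited log2 values that equal the quantile-normalized log2 intensities without background correction (largest difference 5e-09), so this alternative repeats that one. Per the submitters' processing notes GenomeStudio was used, with no version named, and other upstream steps are not given in the sources used here. The number of arrays limits the precision.

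Intensities were corrected with normexp using detection p-values (offset 16), quantile-normalized and log2-transformed by neqc from limma 3.58.1 (R 4.3.3). Probes detected below 0.05 on at least 2 arrays were kept (17631), and the brightest probe stood for a gene (12492 features, 9548 named). Symbols came from the platform annotation, updated through Entrez identifiers for 34807 probes and accessions for 11. One mean per group was fitted to all arrays by lmFit and eBayes (3 residual and 4.29 prior degrees of freedom, median SE 0.256), and features with a Benjamini-Hochberg adjusted p under 0.05 over all features were called. The fit was tested on simulated data.

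Named were all members, up to the 2 genes that rose and the 2 that fell most per list and comparison with wild type, the 3 most similar genes per called member, and Irf8. Members and lists were chosen with earlier results of these data known. Replicate numbers were not treated as pairs. Deviations of same-numbered arrays correlated at 0.0859, -0.0552 and 0.0074, which cannot tell whether the numbers follow the 2 experiments. Alternatives concerned background, scaling, the filter, probes, arrays and the prior, and setting all probes' median equal and no scaling were added after seeing the data. A lone array left in a group was taken to have the spread of the other groups.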

Additional observations from a re-analysis of the deposited data

How the results depend on the processing

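Of 492 member differences under alternatives, 444 kept their direction and side of the threshold, 23 lost a call, 15 gained one and 10 changed sign. Cd274 and Slc7a11 against wild type stayed called in every alternative run. Cd274 ranged from -4.15 to -3.07 in KO and -5.4 to -3.37 in AT-3, and Slc7a11 from -3.37 to -1.1 and -5.31 to -1.62. Tgfb1 and Ptges in KO also stayed called in every alternative that tested them. Ptges, and the brightest Slc7a11 probe in AT-3, had passed the filter only through the groups where they are high. Their staying called therefore supports nothing. Signs turned when the median of detected probes was set equal for Slc7a2 in KO (-0.20) and for Ptgs2 in AT-3 against KO (1.02, limma adjusted p = 0.0122). With 1 array left out, Slc7a2 in KO ranged from -0.19 (without wild-type replicate 2) to 0.36, and Ptgs2 in AT-3 against KO from -0.22 to 0.08, turning without KO replicate 2 (0.02) or AT-3 replicate 2 (0.08). With the median of all probes set equal, Arg2 and Tgfb1 in AT-3 against KO were -0.32 and -0.77. With no scaling they were -0.42 and -0.87, and Arg1 in AT-3 against wild type was -0.02. The cause was not tested.

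With 1 array left out, members called ranged from 4 to 6 in KO and 2 to 6 in AT-3 against wild type, and from 0 to 2 in AT-3 against KO. In AT-3 against KO the count was 5 with the median of detected probes or of all probes set equal and with no scaling, 2 with no filter, and 0 with averaged probes or a filter of detection under 0.01 on every array. Of member probes, 4 were called in each comparison with wild type under that strict filter, in place of 8, since fewer were tested, and in AT-3 against KO 0 under it and 2 with no filter, in place of 1. With the replicate block, the members called were the same in number (6, 6 and 1), and the count over all features in AT-3 against KO was 1279 in place of 1436.

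Scaling sets the balance over the array. With the median of detected probes, the median of all probes and no scaling, the median difference of all features was -0.17, 0.16 and 0.20 in KO, 0.40, -0.38 and -0.44 in AT-3, and 0.39, -0.73 and -0.83 in AT-3 against KO. Calls that were higher made up 48.2% in KO (40.1%, 61.3% and 64.6% in that order), 49.5% in AT-3 (66.6%, 14.3% and 13.1%) and 53.6% in AT-3 against KO (85.6%, 5.79% and 4.81%). Calls over all features numbered 3990 in KO (1402 to 4642), 4360 in AT-3 (1377 to 6084) and 1436 in AT-3 against KO (395 to 7085). Signals near background limit Arg1, Nos2, Slc7a2, Ptgs2 and Il10, and also Ptges in wild type and AT-3.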
